A study of Homo sapiens with 12 samples.

Results

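Amino acid transporters of the plasma membrane and lysosome were taken as every gene whose symbol belongs to the solute carrier families SLC1, SLC3, SLC6, SLC7, SLC36, SLC38 or SLC43. This rule uses names and no measured value, but the members and the gene lists below were chosen with earlier results of these data known. The shares called among them therefore only describe these sets. The rule found 59 of the 60664 genes in the table. Of these, 24 had a mean of at least 1 CPM (counts scaled to the size of the library) in at least 1 group. The other 35 stayed under that level in all 3 groups, and 6 of them (SLC6A5, SLC6A17, SLC6A20, SLC7A13, SLC7A14 and SLC38A8) had no count in any library. The limit of 1 CPM fell between SLC1A1, whose highest group mean was 1.74 CPM, and SLC7A7, whose highest group mean was 0.995 CPM. Because the rule goes by family, the 59 also include carriers of other substrates. Among these are 9 SLC6 carriers of monoamines, GABA, taurine, betaine and creatine, and SLC43A3, known for purine bases.

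RNA was sequenced from MDA-MB-231 cells, an established human line from a triple-negative breast cancer. The 3 groups, of 4 libraries each, were wild type (WT) cells in normoxia, WT cells after 24 hr of hypoxia at 1% O2, and cells with a CCAR2 knockout (KO) in normoxia. CCAR2, also called DBC1, encodes a nuclear regulator of transcription and of protein deacetylation, and it was disrupted by lentiviral CRISPR with a single guide. Whether the KO cells were a clone or a pool is not given in the sources used here. No KO cells in hypoxia were analysed here, so the deletion and low oxygen are compared as separate conditions against the same WT normoxia libraries.

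Amino acids cross membranes through carriers that differ in what drives them. Sodium-coupled carriers of the SLC1, SLC6 and SLC38 families can concentrate amino acids inside the cell. Heteromeric exchangers pair a light chain of the SLC7 family, which does the transport, with a heavy chain of the SLC3 family, which brings it to the membrane. SLC7A5 with SLC3A2 exchanges large neutral amino acids such as leucine for intracellular glutamine, and SLC7A11 with SLC3A2 takes up cystine for glutathione synthesis in exchange for glutamate. Several of these genes are known targets of ATF4, the transcription factor of amino acid shortage, and SLC7A11 is also a known target of NFE2L2, the transcription factor of the antioxidant response.

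Each comparison was fitted with edgeR's quasi-likelihood test on the deposited counts. A gene was called higher or lower at a Benjamini-Hochberg adjusted p under 0.05 over all genes tested when its log2 fold change was also 0.5 or more in size. Library sums were between 153904088 and 213743693 in WT normoxia, between 76384973 and 195621872 in WT hypoxia and between 68599412 and 152328450 in CCAR2 KO. The labels number the libraries but do not say that they came from separate cultures, and the methods text gives other numbers of replicates than the 4 libraries per group. The n, SD and p-values therefore describe these libraries and the spread between them. CCAR2 itself averaged 149 CPM in WT normoxia, 148 CPM in WT hypoxia and 57.2 CPM in KO cells, and 12 of 12 known hypoxia-induced genes were called higher in WT hypoxia. Of the markers of the line, VIM, CD44, EGFR, CAV1, MSN and AXL were abundant and SPARC was near 1.26 CPM in WT normoxia, while ESR1, PGR and CDH1 stayed under 1 CPM. ERBB2, EPCAM and GATA3, also listed as low or absent in this line, are not described here. The low markers given therefore cover only a part of that list. Markers of other cell types (PTPRC, CD3E, LYZ, ALB and PDGFRA) stayed under 1 CPM in all groups, and the endothelial marker PECAM1 averaged 2.60, 3.36 and 5.46 CPM in WT normoxia, WT hypoxia and KO cells. The rise of PECAM1 in KO cells (log2 fold change 1.11, edgeR adjusted p = 8.9e-05) moved with the KO results below, and its part in them was not tested.

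The promoters of transporters that rose are shown for the core of the hypoxia response element, the short sequence bound by the hypoxia-inducible factors. RefSeq windows on GRCh38.p14 were found for 20 of the 24 transporters at 1 CPM or more. The 250 bases upstream of each start were searched on both strands. SLC6A6, SLC7A2, SLC7A11 and SLC43A3 had no window, so the shares below do not cover them. SLC1A1 and SLC6A8, which both rose in hypoxia, differ in these letters. The SLC1A1 window at chr9:4490218-4490443 on the plus strand (the stretch before the annotated gene start) held 4 matches to GCGTG, of which 1 is read on the strand shown and 3 on the other strand as CACGC, 2 of them overlapping. The SLC6A8 window at chrX:153687676-153687925 on the plus strand held 0 matches to ACGTG or GCGTG. SLC38A10, which also rose, had neither sequence in its window. GCGTG was also in some windows of SLC43A2, which fell in hypoxia. SLC7A5 and SLC7A6, which were not called, held both ACGTG and GCGTG. Capitals mark the matches.
SLC1A1: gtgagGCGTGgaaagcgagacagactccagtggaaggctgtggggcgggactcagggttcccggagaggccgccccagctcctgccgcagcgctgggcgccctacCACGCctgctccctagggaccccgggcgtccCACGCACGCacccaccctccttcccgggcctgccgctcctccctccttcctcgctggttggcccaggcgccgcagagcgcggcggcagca
SLC6A8: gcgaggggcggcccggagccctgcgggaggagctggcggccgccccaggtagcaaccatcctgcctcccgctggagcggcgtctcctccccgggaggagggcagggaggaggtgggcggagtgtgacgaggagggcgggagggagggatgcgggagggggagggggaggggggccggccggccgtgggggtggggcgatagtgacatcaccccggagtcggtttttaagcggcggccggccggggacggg
Over 34 windows of the 20 genes, 55.9% held ACGTG or GCGTG, against 43.2% of all 35116 windows. Some genes gave several windows, and those of SLC38A9 overlap in part, so these are shares of windows and not of genes. The letters TGATGNAA, the element bound by ATF4 with its partners, were in 2.94% of the transporter windows and 3.14% of all windows. TGACNNNGC, the antioxidant response element of NFE2L2, was in 11.8% and 10.9%. A match describes only the letters, and the search draws nothing about binding.

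The transporter transcripts of these cells were dominated by a few genes. Per kilobase of exon, SLC1A5, the glutamine and neutral amino acid exchanger ASCT2, was the highest in WT normoxia at 143 ± 2.97 CPM per kb (SD, n = 4). A stretch of 23.4% of its exon length lies opposite AC008622.2, and whether counting used the strand is not given in the sources used here. SLC7A5, the leucine-carrying light chain LAT1, followed at 86.9 ± 3.32 CPM per kb. Then came SLC43A3, a carrier known for purine bases, at 74.5 ± 1.80 CPM per kb, and SLC3A2, the heavy chain CD98, at 60.3 ± 3.68 CPM per kb. These 4 did not overlap with their neighbours in the order. SLC38A2 (SNAT2) at 53.1 ± 2.38 CPM per kb and SLC38A1 (SNAT1) at 51.6 ± 3.67 CPM per kb, both glutamine importers, overlapped. SLC7A1, the arginine and lysine carrier CAT1, stood at 40.0 ± 2.94 CPM per kb and the taurine carrier SLC6A6 at 17.7 ± 1.53 CPM per kb.

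**Figure D1:**
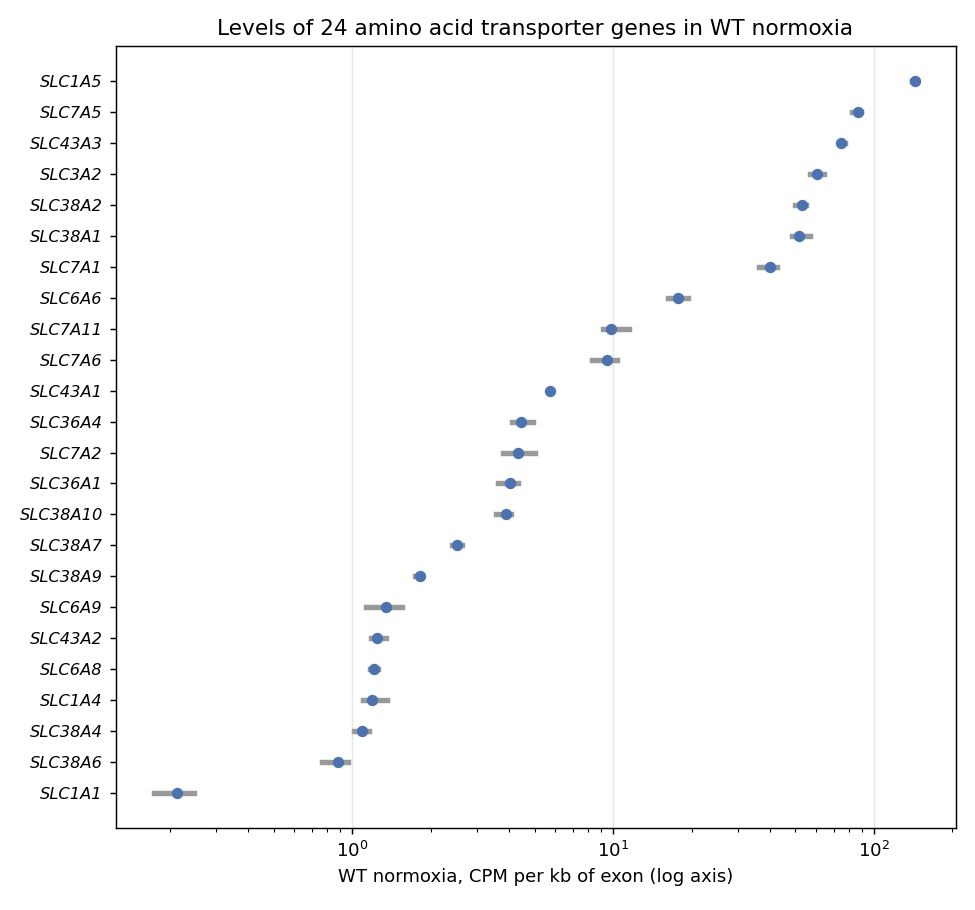
Level of the 24 amino acid transporters at 1 CPM or more in WT normoxia, in CPM per kilobase of exon on a log axis, with points at the mean of 4 libraries and grey bars from the lowest to the highest library. SLC1A5 is at the top at 143 CPM per kb and SLC1A1 at the bottom at 0.214 CPM per kb.

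Below these, the levels per kilobase ran from SLC7A11 at 9.85 CPM per kb, which overlapped with SLC7A6 at 9.45 CPM per kb, to SLC38A6 at 0.880 and SLC1A1, the neuronal-type glutamate transporter EAAT3, at 0.214 CPM per kb. The neighbours from SLC36A4 to SLC38A10 (4.42 to 3.88 CPM per kb) overlapped, as did those from SLC6A9 to SLC38A4 (1.34 to 1.09 CPM per kb). Exon length counts every annotated transcript, so a gene with long unused transcripts is placed too low. Summed over all 59 genes, the family held 3169 to 3387 CPM in WT normoxia (median 3248), 2636 to 2931 CPM in WT hypoxia (median 2888) and 3003 to 3255 CPM in CCAR2 KO (median 3092). All 4 hypoxia libraries lay below all libraries of the other groups, and the KO libraries overlapped with WT normoxia. The 5 genes with the highest CPM per kb in WT normoxia held between 56.0% and 61.5% of the family's sum in each library. In bulk RNA, fewer cells of a type and less RNA per cell cannot be told apart.

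Under hypoxia, the glutamate carrier SLC1A1, the creatine carrier SLC6A8 and SLC38A10 rose, and the cystine carrier SLC7A11, the leucine-type carrier SLC43A2 and the broad amino acid importer SLC6A14 fell. Of the 59 genes, 37 could be tested in WT hypoxia against WT normoxia, 3 were called higher and 3 lower. That is 16.2% of those tested, against 7.26% of all 21776 genes tested (5.83% higher and 1.43% lower). Among the 24 at 1 CPM or more, 3 were higher, 2 lower and 19 not called. SLC1A1 is among those 24 only through hypoxia and KO cells, where it was higher, so its calls are partly fixed by that limit. The median log2 fold change of the 37 was -0.11, and that of all genes was 0.01. By the adjusted p alone, 3 were higher and 9 lower, where 23.5% of all genes passed (11.6% higher and 12% lower). The libraries of the groups did not overlap for 14 of the 37, against 27.6% of all genes.

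In KO cells, the glycine carrier SLC6A9, the neutral amino acid carrier SLC38A4 and SLC1A1 rose, and no transporter was called lower by edgeR. The glial-type glutamate transporter SLC1A3 was also called higher, at under 1 CPM in every group. SLC1A3 passed the filter on low counts only through the KO libraries, where it was higher, so this call is partly fixed by that filter. Of 36 genes tested in CCAR2 KO against WT normoxia, 4 were called higher and 0 lower by edgeR, or 11.1%, against 9.67% of all 21410 genes (6.73% higher and 2.94% lower). Among the 24 at 1 CPM or more, 3 were higher. limma-voom called 6 higher and 0 lower. DESeq2 called 5 higher and 1 lower, SLC7A2, described with the cationic carriers. An unadjusted p under 0.05 gave 11 higher and 8 lower. No share of all genes was computed at the unadjusted p, here or for the lists below, so these counts show no shift by themselves. By the adjusted p alone 10 were higher and 6 lower, where 30.4% of all genes passed (14.9% higher and 15.4% lower). The median log2 fold change was 0.09, and 0.01 over all genes. The groups did not overlap for 19 of the 36, against 31.7% of all genes.

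Both contrasts share the WT normoxia libraries, so the difference between them was tested by setting KO cells directly against WT hypoxia. In this comparison 8 of 36 genes were higher in KO cells (SLC1A3, SLC6A9, SLC6A14, SLC7A11, SLC38A2, SLC38A4, SLC38A7 and SLC43A2) and 1, SLC6A8, was lower. That is 25%, against 15% of all 21158 genes (7.08% higher and 7.88% lower). By the adjusted p alone 12 were higher and 4 lower, where 34.9% of all genes passed (17.1% higher and 17.8% lower). The median log2 fold change was 0.19, and -0.02 over all genes. The groups did not overlap for 15 of the 36, against 35.8% of all genes.

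**Figure D2:**
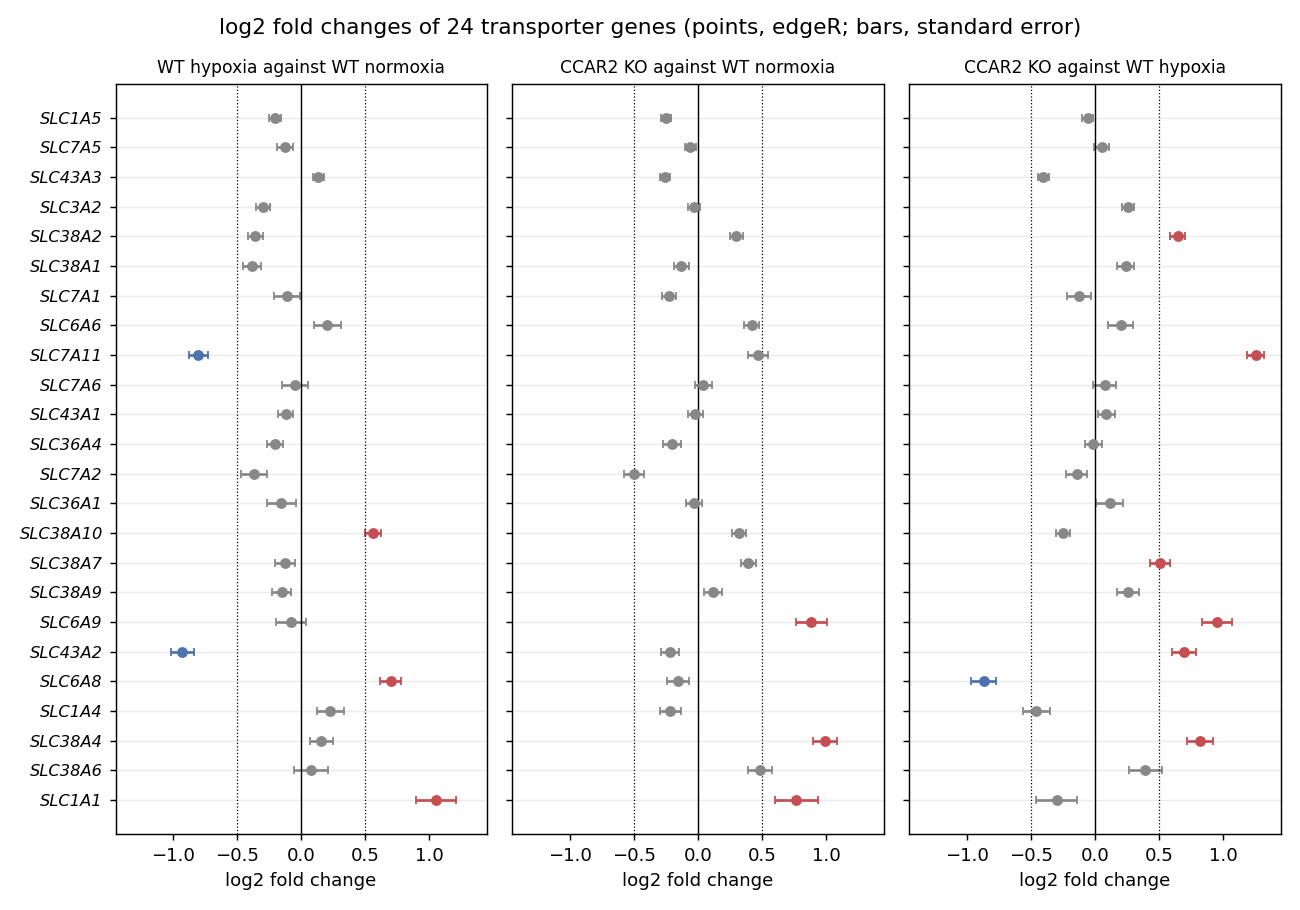
Log2 fold change with its standard error for the 24 transporters at 1 CPM or more in the 3 comparisons, ordered by level per kilobase in WT normoxia, with called genes in red (higher) and blue (lower), genes not called in grey, and dotted lines at 0.5 and -0.5. SLC7A11 and SLC43A2 lie furthest to the lower side in WT hypoxia at -0.80 and -0.93, and SLC38A4 and SLC6A9 furthest to the higher side in CCAR2 KO at 0.99 and 0.88.

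The widest contrast among the heteromeric exchangers was that of SLC7A11, the cystine and glutamate antiporter xCT. Its libraries were at 111, 89.0, 92.0 and 88.5 CPM in WT normoxia, 55.6, 50.9, 55.2 and 51.7 CPM in WT hypoxia, and 144, 123, 115 and 129 CPM in CCAR2 KO. Every hypoxia library lay below every normoxia library, and every KO library above. SLC7A11 fell in hypoxia with a log2 fold change of -0.80 ± 0.07 (SE, adjusted p = 5.0e-05, edgeR). In KO cells the log2 fold change was 0.47 ± 0.08 (adjusted p = 0.00063), under the fold limit of 0.5, so it was not called. It passed that limit when WT normoxia replicate 1, the highest control, was left out (0.54) and when KO replicate 3 was left out (0.51). Between KO cells and hypoxia SLC7A11 differed by 1.26 ± 0.07 on the log2 scale (adjusted p = 1.5e-07), a 2.39-fold higher level in KO cells. Of its exon length, 8.97% overlaps the antisense gene SLC7A11-AS1, which averaged 0.254, 0.262 and 0.336 CPM in the 3 groups.

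SLC3A2, the heavy chain that SLC7A11 and SLC7A5 share, moved less. It was at 294, 334, 322 and 298 CPM in WT normoxia, 234, 255, 252 and 254 CPM in WT hypoxia, and 297, 287, 309 and 298 CPM in CCAR2 KO. All hypoxia libraries lay below the others, and KO libraries overlapped with WT normoxia. The log2 fold change in hypoxia was -0.30 ± 0.06 (adjusted p = 0.0033, edgeR), under the fold limit, and in KO cells -0.03 ± 0.05 (adjusted p = 0.71). The ratio of SLC7A11 to SLC3A2 in CPM was 0.267 to 0.376 in WT normoxia, 0.199 to 0.238 in WT hypoxia and 0.371 to 0.485 in KO cells, which overlap between WT normoxia and KO cells only.

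The most abundant light chain, SLC7A5, was not called in any comparison. It was at 424, 390.0, 413 and 423 CPM in WT normoxia, 377, 329, 392 and 386 CPM in WT hypoxia, and 397, 367, 379 and 397 CPM in CCAR2 KO, and all groups overlapped. The log2 fold changes were -0.12 ± 0.06 in hypoxia (adjusted p = 0.17) and -0.06 ± 0.04 in KO cells (adjusted p = 0.34). SLC7A6, a light chain that exchanges arginine for neutral amino acids, averaged 71.7, 67.9 and 71.8 CPM and was not called either. A stretch of 44.4% of its exon length lies opposite SLC7A6OS, and whether counting used the strand is not given in the sources used here.

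The members of the SLC43 family divided. SLC43A2 (LAT4), a facilitative carrier of leucine and other large neutral amino acids, was at 13.4, 12.5, 14.3 and 12.5 CPM in WT normoxia, 6.71, 7.34, 7.14 and 5.97 CPM in WT hypoxia, and 10.7, 10.5, 11.0 and 11.9 CPM in CCAR2 KO. All hypoxia libraries lay below all others, and the KO libraries lay below WT normoxia. It fell in hypoxia by 0.93 ± 0.09 on the log2 scale (edgeR adjusted p = 8.5e-05), to 0.526 of its normoxic level. In KO cells the log2 fold change was -0.22 ± 0.07 (adjusted p = 0.033), under the fold limit, and KO cells were 1.62-fold above hypoxia (adjusted p = 0.00016). SLC43A1 (LAT3), a carrier of the same substrates, averaged 20.3, 18.3 and 19.4 CPM and was not called.

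SLC43A3 was at 349, 333, 332 and 333 CPM in WT normoxia, 357, 371, 349 and 369.9 CPM in WT hypoxia, and 283, 265, 277 and 269.9 CPM in CCAR2 KO. The KO libraries lay below all 8 WT libraries. The log2 fold change in KO cells was -0.26 ± 0.04 (adjusted p = 0.00017, edgeR) and that between KO cells and hypoxia -0.40 ± 0.04 (adjusted p = 3.3e-05), both under the fold limit. SLC43A3 shares 29.9% of its exon length with AP000781.2 on the same strand, so reads there could be split between them.

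**Figure D3:**
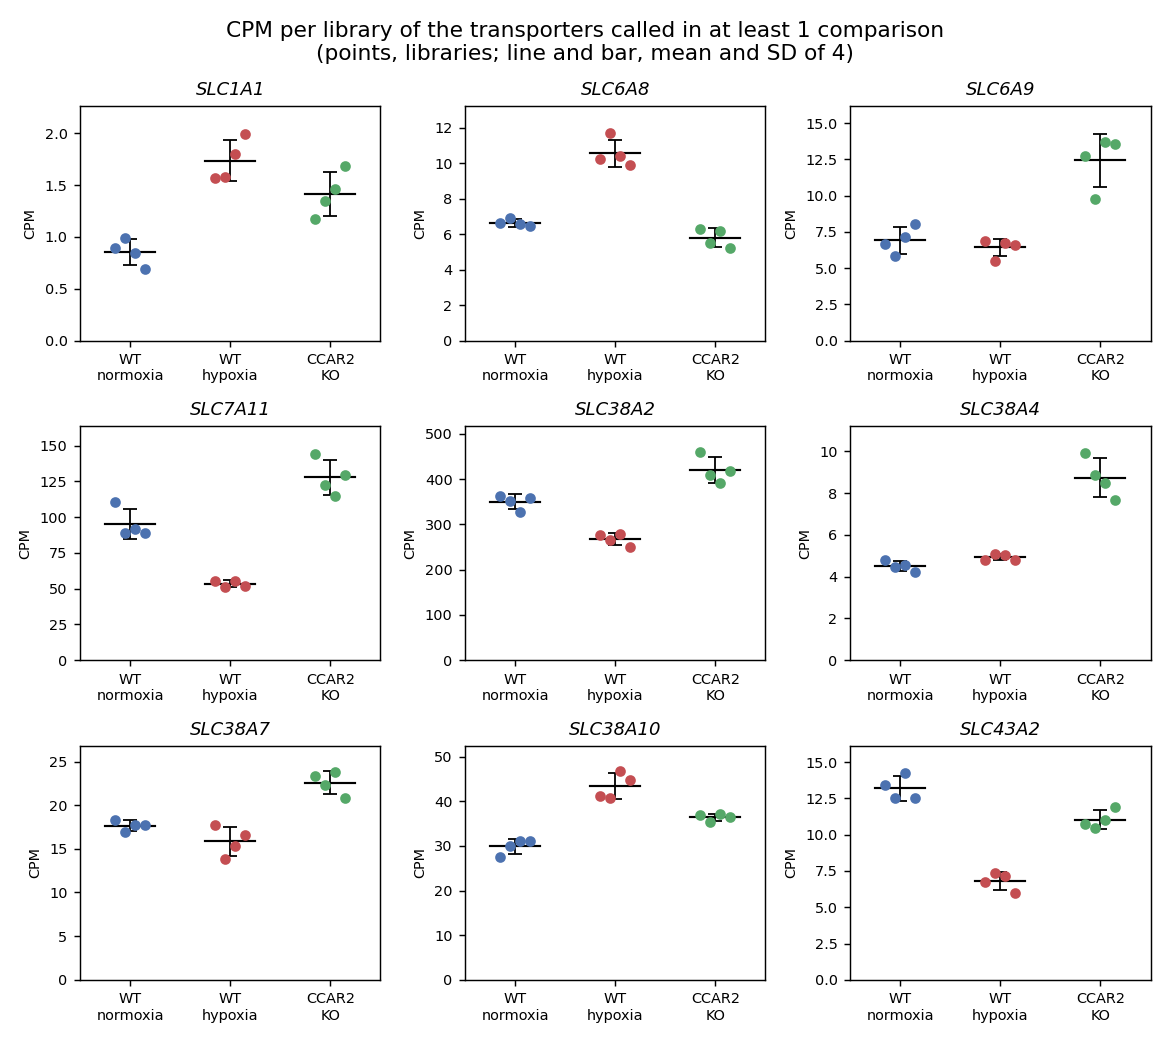
CPM in each of the 12 libraries for the transporters at 1 CPM or more that were called in at least 1 comparison, with the mean and SD of each group. SLC7A11 and SLC43A2 are lowest in WT hypoxia, SLC6A9 and SLC38A4 highest in CCAR2 KO, and SLC6A8 and SLC38A10 highest in WT hypoxia.

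Among the SLC1 carriers, SLC1A1 was called in both contrasts against WT normoxia. EAAT3, its product, imports glutamate, aspartate and cysteine with sodium. Its libraries were at 0.894, 0.985, 0.844 and 0.693 CPM in WT normoxia, 1.57, 1.58, 1.80 and 1.99 CPM in WT hypoxia, and 1.17, 1.35, 1.46 and 1.68 CPM in CCAR2 KO. All WT normoxia libraries lay below the others, and hypoxia and KO overlapped. SLC1A1 rose 2.08-fold in hypoxia (log2 fold change 1.06 ± 0.16, adjusted p = 0.0010, edgeR) and 1.70-fold in KO cells (0.77 ± 0.17, adjusted p = 0.0044). KO cells and hypoxia differed by -0.30 ± 0.16 on the log2 scale (adjusted p = 0.18). This gene had the lowest level of the 24, and its counts were between 96 and 393 per library.

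SLC1A5, the most abundant transporter per kilobase, was lower in both conditions but under the fold limit. It was at 465, 481, 489 and 475 CPM in WT normoxia, 400.2, 401, 406 and 417 CPM in WT hypoxia, and 398, 374, 387 and 406 CPM in CCAR2 KO. Every WT normoxia library lay above the other 8, and hypoxia and KO overlapped. The log2 fold changes were -0.20 ± 0.04 in hypoxia (adjusted p = 0.0069, edgeR) and -0.25 ± 0.04 in KO cells (adjusted p = 0.00043). SLC1A4 (ASCT1), an exchanger of serine, alanine and cysteine, averaged 8.30 ± 0.80, 9.52 ± 1.3 and 6.95 ± 0.30 CPM (SD, n = 4) in the same order of groups and was not called. Between KO cells and hypoxia its log2 fold change was -0.46 ± 0.10 (adjusted p = 0.0051), which passed the fold limit only without WT hypoxia replicate 1 (-0.51).

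The SLC38 family consists of sodium-coupled neutral amino acid carriers. Of its 11 genes 8 were tested, and 1 was higher in hypoxia (12.5%, against 7.26% of all genes called), 1 in KO cells against WT normoxia (12.5%, against 9.67%), and 3 in KO cells against hypoxia (37.5%, against 15%). SLC38A2, the importer of glutamine and alanine that is known to be induced by amino acid shortage, was at 364, 352, 328 and 358 CPM in WT normoxia, 277, 265, 279 and 250.5 CPM in WT hypoxia, and 460.1, 409, 392 and 418 CPM in CCAR2 KO. No groups overlapped, with hypoxia lowest and KO highest. The log2 fold changes against WT normoxia were -0.36 ± 0.06 in hypoxia (adjusted p = 0.0014, edgeR) and 0.30 ± 0.05 in KO cells (adjusted p = 0.00097), both under the fold limit. KO cells and hypoxia differed by 0.65 ± 0.06 (adjusted p = 8.8e-06), which was called.

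SLC38A4 (SNAT4), a carrier of neutral and cationic amino acids known from liver, was at 4.82, 4.48, 4.55 and 4.21 CPM in WT normoxia, 4.82, 5.06, 5.04 and 4.81 CPM in WT hypoxia, and 9.91, 8.88, 8.50 and 7.65 CPM in CCAR2 KO. All KO libraries lay above all WT libraries. It rose 1.99-fold in KO cells (log2 fold change 0.99 ± 0.09, adjusted p = 7.9e-06, edgeR), and the value in hypoxia was 0.16 ± 0.09 (adjusted p = 0.24). The difference between KO cells and hypoxia was 0.82 ± 0.10 (adjusted p = 7.8e-05). SLC38A1, SLC38A2 and SLC38A4 lie on the minus strand of chromosome 12 between 46183063 and 46832408 of GRCh38, in that order. SLC38A1 was at 569, 485, 502 and 508 CPM in WT normoxia, 421, 349.8, 405 and 376 CPM in WT hypoxia, and 496, 452, 426 and 462 CPM in CCAR2 KO. All hypoxia libraries lay below all others, and KO cells overlapped with WT normoxia. It was not called, with a log2 fold change of -0.38 ± 0.07 in hypoxia (adjusted p = 0.0029) and -0.13 ± 0.06 in KO cells (adjusted p = 0.11).

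SLC38A10, a member of the family with a wide tissue distribution, was at 27.6, 30.0, 31.2 and 31.0 CPM in WT normoxia, 41.1, 40.7, 46.8 and 44.7 CPM in WT hypoxia, and 36.8, 35.3, 37.1 and 36.5 CPM in CCAR2 KO. The 3 groups did not overlap, with WT normoxia lowest and hypoxia highest. It rose in hypoxia by 0.56 ± 0.06 on the log2 scale (adjusted p = 0.00021, edgeR), and in KO cells the value was 0.32 ± 0.05 (adjusted p = 0.00075), under the fold limit. SLC38A7, a lysosomal exporter of glutamine and asparagine, was at 18.4, 16.9, 17.7 and 17.7 CPM in WT normoxia, 17.7, 13.8, 15.3 and 16.6 CPM in WT hypoxia, and 23.4, 22.3, 23.8 and 20.9 CPM in CCAR2 KO. The KO libraries lay above all WT libraries, while both WT groups overlapped. KO cells were 1.42-fold above hypoxia (log2 fold change 0.51 ± 0.08, adjusted p = 0.00052), which lies at the fold limit and was not called under upper-quartile normalization (0.48) or without WT hypoxia replicate 2 (0.45), WT hypoxia replicate 3 (0.49) or KO replicate 3 (0.48). Against WT normoxia, the KO value was 0.39 ± 0.06 (adjusted p = 0.00033). SLC38A9, the lysosomal arginine sensor of the mTORC1 pathway, averaged 16.0, 14.1 and 16.9 CPM, and SLC38A6 averaged 4.53, 4.69 and 6.16 CPM. Neither was called, and SLC38A6 had a log2 fold change of 0.48 ± 0.10 in KO cells (adjusted p = 0.0023), which passed the fold limit under upper-quartile normalization, under limma-voom, without WT normoxia replicate 1 and without KO replicate 2, at 0.50 to 0.52. Without WT hypoxia replicate 2, SLC38A6 was also called higher in KO cells than in hypoxia (0.52).

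**Figure D4:**
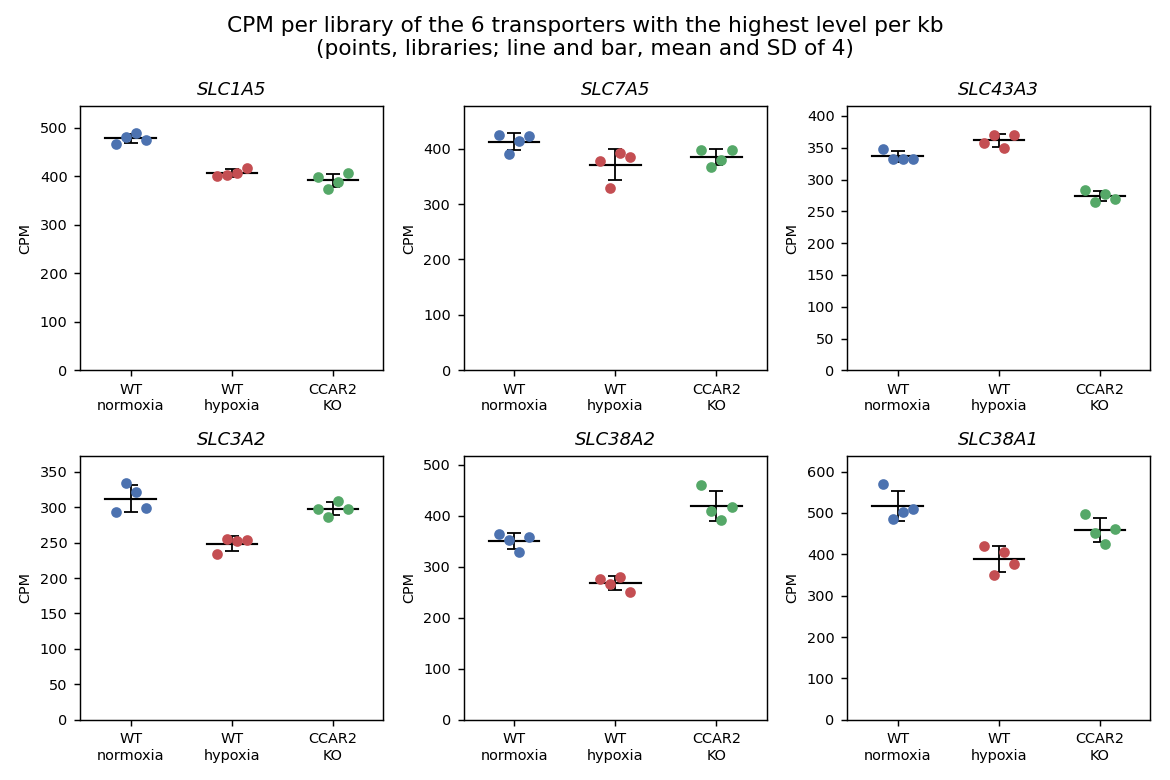
CPM in each of the 12 libraries for the 6 transporters with the highest CPM per kb in WT normoxia, with the mean and SD of each group. SLC1A5 is highest in WT normoxia at 478 CPM, SLC3A2 is lowest in WT hypoxia at 249 CPM, SLC38A2 is highest in CCAR2 KO at 419.6 CPM, SLC38A1 is lowest in WT hypoxia at 388 CPM, and SLC7A5 overlaps in all groups.

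In the SLC6 family, which couples transport to sodium and chloride, the creatine carrier rose in hypoxia and the glycine carrier in KO cells. SLC6A8, the creatine carrier CT1, was at 6.62, 6.93, 6.56 and 6.44 CPM in WT normoxia, 10.2, 11.7, 10.4 and 9.92 CPM in WT hypoxia, and 6.30, 5.48, 6.19 and 5.20 CPM in CCAR2 KO. No groups overlapped, with hypoxia highest and KO lowest. It rose 1.62-fold in hypoxia (log2 fold change 0.70 ± 0.08, adjusted p = 0.00028, edgeR), and the KO value was -0.16 ± 0.09 (adjusted p = 0.21). KO cells were lower than hypoxia by 0.87 ± 0.10 on the log2 scale (log2 fold change -0.87, adjusted p = 4.6e-05). The near-identical copy SLC6A10P had 0 CPM in all libraries, and how reads shared with copies were assigned is not given in the sources used here.

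SLC6A9 (GLYT1), the glycine importer, was at 6.68, 5.83, 7.14 and 8.03 CPM in WT normoxia, 6.85, 5.50, 6.71 and 6.61 CPM in WT hypoxia, and 12.7, 9.75, 13.7 and 13.5 CPM in CCAR2 KO. All KO libraries lay above all WT libraries, and both WT groups overlapped. SLC6A9 rose 1.85-fold in KO cells (log2 fold change 0.88 ± 0.12, adjusted p = 0.00016, edgeR), and the hypoxia value was -0.08 ± 0.12 (adjusted p = 0.69). KO cells and hypoxia differed by 0.95 ± 0.12 (adjusted p = 9.1e-05). SLC6A6 averaged 146, 165 and 191 CPM, and its log2 fold change in KO cells was 0.42 ± 0.06 (adjusted p = 0.00018), under the fold limit.

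The cationic carriers and the proton-coupled SLC36 carriers gave no calls in edgeR. SLC7A1 averaged 307, 279 and 256 CPM, with a log2 fold change of -0.22 ± 0.05 in KO cells (adjusted p = 0.0073, edgeR). SLC7A2 (CAT2), the inducible arginine carrier, was at 39.6, 29.8, 33.7 and 33.7 CPM in WT normoxia, 29.6, 22.3, 27.3 and 24.6 CPM in WT hypoxia, and 24.8, 22.6, 22.8 and 23.9 CPM in CCAR2 KO. The hypoxia and KO libraries all lay below WT normoxia, and they overlapped with each other. Its log2 fold change was -0.37 ± 0.10 in hypoxia (adjusted p = 0.021) and -0.499 ± 0.08 in KO cells (adjusted p = 0.00035), just under the fold limit. It was called lower in KO cells with RLE normalization (-0.50), with DESeq2 (-0.51), with no filter (-0.52), and without WT normoxia replicate 2 (-0.57), 3 (-0.51) or 4 (-0.50) or KO replicate 1 (-0.52) or 4 (-0.51). The lysosomal exporter SLC36A1 averaged 28.1, 24.7 and 26.8 CPM, and SLC36A4, a carrier of proline and tryptophan, averaged 42.8, 36.3 and 36.1 CPM.

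Of the 35 genes under 1 CPM, 13 could be tested in hypoxia and 12 in each of the KO comparisons, and 2 were called. Both were named after their values were seen. SLC6A14 (ATB0,+), which imports nearly all neutral and cationic amino acids, was at 0.718, 0.808, 0.668 and 0.442 CPM in WT normoxia, 0.179, 0.217, 0.224 and 0.314 CPM in WT hypoxia, and 0.968, 0.913, 0.880 and 0.613 CPM in CCAR2 KO. The hypoxia libraries lay below all others, and WT normoxia and KO overlapped. It fell in hypoxia with a log2 fold change of -1.44 ± 0.27 (adjusted p = 0.0031, edgeR), and KO cells were 3.55-fold above hypoxia (adjusted p = 0.00027). Its value in KO cells against WT normoxia was 0.39 ± 0.23 (adjusted p = 0.22).

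SLC1A3 (EAAT1) had 7, 26, 14 and 6 counts in WT normoxia, 0, 3, 10 and 23 counts in WT hypoxia, and 48, 27, 50 and 35 counts in CCAR2 KO. In CPM the KO libraries (0.347, 0.379, 0.321 and 0.265) lay above all WT libraries, of which the highest was 0.148. In both KO comparisons SLC1A3 passed the filter on low counts only through the KO libraries, so both calls are partly fixed by that filter. The log2 fold change of SLC1A3 in KO cells was 2.17 ± 0.46 (adjusted p = 0.0035, edgeR) against WT normoxia and of 2.45 ± 0.63 (adjusted p = 0.0099) against hypoxia. Leaving out 1 library moved these values between 1.96 and 2.73 against WT normoxia and between 2.13 and 3.15 against hypoxia, with the highest of all without WT hypoxia replicate 4.

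The genes around the transporters were read from lists of known function. Of 28 ATF4 targets of amino acid stress, 2 were higher and 0 lower by edgeR in hypoxia, where DESeq2 called 0 and limma-voom 1 lower and an unadjusted p under 0.05 gave 14. That is 7.14%, against 7.26% of all genes. In KO cells 2 were higher and 2 lower, or 14.3% against 9.67%. By the adjusted p alone 4 were higher and 12 lower in hypoxia, and 3 higher and 10 lower in KO cells. Of all genes, 11.6% were higher and 12% lower in hypoxia by this measure, and 14.9% and 15.4% in KO cells. DDIT4, an inhibitor of mTORC1, had log2 fold changes of 1.52 in hypoxia and 0.58 in KO cells, and the lipoprotein receptor VLDLR 0.77 in hypoxia. In KO cells CHAC1, which degrades glutathione, rose by 0.52 on the log2 scale, while the proline enzyme PYCR1 and the serine enzyme PSAT1 had -0.65 and -0.58. The higher calls in KO cells were 1 in place of 2 with no filter and without WT normoxia replicate 1 or 2 or KO replicate 1. ATF4 itself averaged 379 ± 14.4, 308 ± 28.6 and 303 ± 8.06 CPM (SD, n = 4), with log2 fold changes of -0.27 in hypoxia (adjusted p = 0.016) and -0.28 in KO cells (adjusted p = 0.00020), both under the fold limit.

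Of 31 genes of amino acid sensing at the lysosome, 0 were called higher and 1 lower by edgeR, DESeq2 and limma-voom in hypoxia, with 6 higher at an unadjusted p under 0.05. The share called was 3.23% in hypoxia and 6.45% in KO cells, against 7.26% and 9.67% of all genes. SESN3, of the sestrin family whose member SESN2 binds leucine, fell in hypoxia with a log2 fold change of -0.71 (adjusted p = 0.017). Without WT normoxia replicate 1 no gene of the list was called lower in hypoxia by edgeR, and without WT hypoxia replicate 2 there were 2. In KO cells 2 were higher, SESN3 at 1.23 and the arginine sensor CASTOR1 at 0.67, and 0 lower by all 3 tools, with 8 lower at an unadjusted p under 0.05. Against hypoxia, KO cells had 4 higher and 0 lower by all 3 tools, with SESN3 at 1.91 and 9 lower at an unadjusted p under 0.05 (12.9% called, against 15% of all genes).

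Among 22 enzymes that use the transported amino acids, 1 was higher and 3 lower in hypoxia of 20 tested, and 1 was higher and 1 lower in KO cells of 19 tested. These are 20% and 10.5%, against 7.26% and 9.67% of all genes. In KO cells 2 were higher with DESeq2, limma-voom or upper-quartile normalization and without KO replicate 2, and 3 without WT normoxia replicate 1. The count lower in KO cells was 2 without WT normoxia replicate 1 or 4. GCLM, the modifier subunit of the enzyme that joins the cysteine supplied through SLC7A11 to glutamate for glutathione, averaged 76.6, 47.6 and 101 CPM. It fell in hypoxia with a log2 fold change of -0.66 (adjusted p = 0.00016, edgeR) and was higher in KO cells than in hypoxia by 1.09 (adjusted p = 1.4e-06). GCLC, the catalytic subunit, which was named after its values were seen, averaged 25.7, 21.5 and 35.0 CPM and was higher in KO cells than in hypoxia by 0.70 on the log2 scale. KYNU, an enzyme of tryptophan breakdown, had log2 fold changes of -1.24 in hypoxia and 1.88 in KO cells, at under 1 CPM in both WT groups. The branched-chain enzyme subunit BCKDHA rose by 1.07 in hypoxia, and the arginine-making enzyme ASS1 had -0.58 in KO cells.

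Of the 6 transcription factors known to act on these transporters, 1 was called lower in hypoxia and 2 higher in KO cells. These are 16.7% and 33.3%, against 7.26% and 9.67% of all genes. The calls were HIF1A, with log2 fold changes of -1.32 in hypoxia and 0.65 in KO cells, and EPAS1, with 1.42 in KO cells. Between KO cells and hypoxia 3 were called higher in KO cells, or 50% against 15% of all genes. NFE2L2 averaged 64.6, 47.0 and 71.0 CPM in WT normoxia, WT hypoxia and KO cells. NFE2L2 was called higher in KO cells than in hypoxia, by 0.60 (adjusted p = 0.00021, edgeR), and its value in hypoxia, -0.43 (adjusted p = 0.0019), was under the fold limit. Of 21 amino acid carriers of other families, 17 were tested. By edgeR, DESeq2 and limma-voom 0 were called in hypoxia, and an unadjusted p under 0.05 gave 0 higher and 3 lower. In KO cells 1, the peptide and histidine carrier SLC15A3, was called higher at 0.53 (adjusted p = 0.042), or 5.88% of those tested against 9.67% of all genes. It is a call lost with no filter, with the replicate number as a block, and when any 1 of 6 of the libraries was left out.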

How the data were processed

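MDA-MB-231 RNA was profiled in 12 libraries, grouped by the treatment and genotype in their labels. According to the methods, reads were aligned with Hisat2 and quantified with StringTie, while the submitters' processing notes name HISAT2, SAMtools and featureCounts. The build and annotation are not given in the sources used here. The deposited values are whole and carry no scaling for depth. They were taken to be expected counts, which is an inference from the values and not a statement of the authors. In all 12 libraries the value 4 was more frequent than 3 or 5, so a library's sum was not read as its number of reads. Precision was judged from the spread between 4 libraries.

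CPM are edgeR's library-scaled counts after TMM normalization over all 12 libraries. CPM per kb divides by the union of GENCODE 29 exons on GRCh38, in which all 59 identifiers were found. Each comparison was fitted on its 8 libraries with edgeR 4.0.16 in R 4.3.3 (TMM, filterByExpr, glmQLFit and glmQLFTest, Benjamini-Hochberg adjustment over all genes tested). The SE is the absolute log2 fold change divided by the square root of F. On simulated data, edgeR recovered 81% of log2 changes of 1 in WT hypoxia against WT normoxia (21164 genes), 82% in CCAR2 KO against WT normoxia (20777 genes) and 83% in CCAR2 KO against WT hypoxia (20596 genes), with 5, 8 and 5 false calls. Changes were planted only in well-counted genes, with the spread taken from the fits. The recovery therefore does not extend to genes with few counts or to smaller changes.

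The members and gene lists were chosen with earlier results of these data known. Single genes were described at a mean of at least 1 CPM in any group, with values per library for those called in any comparison and for the 5 highest per kb, the rest by range and counts. Of each list at most 4 called genes with the largest changes were named, plus ATF4. Values per library of SLC7A2 and SLC38A1, and genes marked so in the text, were added after their values were seen.

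Alternatives were DESeq2 1.42.0, limma-voom (limma 3.58.1), normalization by RLE or by the upper quartile, the omission of the filter or a minimum of 10 counts per library, the adjusted p with no fold limit or with a limit of 1 on the log2 scale, a joint fit of all 12 libraries, a replicate block, and each library left out. Counts divided by 4 were an alternative chosen after seeing the data.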

Additional observations from a re-analysis of the deposited data

Results flagged for a closer look

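In 3 of 72 groups of 4 libraries tested over the 24 transporters at 1 CPM or more, 1 library lay far from the other libraries of its group by Dixon's ratio of the gap to the range, with a limit of 0.829. Chance gives about 1 in 20 such groups, or 3.6 here. SLC3A2, the heavy chain of the exchangers, was at 234 CPM in WT hypoxia replicate 1 and at 252 to 255 CPM in the other hypoxia libraries (ratio 0.866). SLC7A11, the cystine carrier, was at 111 CPM in WT normoxia replicate 1 and at 88.5 to 92.0 CPM in the others (ratio 0.845). SLC43A3 was at 349 CPM in the same library and at 332 to 333 CPM in the others (ratio 0.928).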

How the results depend on the processing

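The counts of transporters called in hypoxia, 3 higher and 3 lower, were 3 and 3 with a replicate block and when any 1 library was left out. With the adjusted p alone 9 were lower, and with a fold limit of 1 on the log2 scale there was 1 higher and 1 lower. In KO cells against WT normoxia, 1 was lower with RLE normalization, DESeq2 or no filter, 10 were higher and 6 lower with the adjusted p alone, and 1 was higher at a log2 fold change of at least 1. Leaving out 1 library gave 4 to 6 higher and 0 to 1 lower. The 1 lower call was SLC7A2 without WT normoxia replicate 2, 3 or 4 or KO replicate 1 or 4. Between KO cells and hypoxia, 2 were lower with DESeq2 and 4 with the adjusted p alone, and at a log2 fold change of at least 1 there were 3 higher and 0 lower. Leaving out 1 library gave 7 to 8 higher and 1 to 2 lower, with 2 lower without WT hypoxia replicate 1 or KO replicate 3. The cause of these changes was not tested. The labels give the groups the same replicate numbers, but same-numbered libraries did not deviate together (correlations between -0.027 and 0.133), and with the number as a block 5 were higher and 0 lower in KO cells and 8 higher and 1 lower between KO cells and hypoxia.

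Among the single transporters named, the sign turned only for values that were not called. SLC7A6 in hypoxia was 0.0029 on the log2 scale with upper-quartile normalization. Over the libraries left out, the ranges that crossed 0 were -0.15 to 0.0095 for SLC6A9, -0.12 to 0.036 for SLC7A6, -0.056 to 0.16 for SLC38A6 and -0.54 to 0.0082 for SLC1A3 in hypoxia, -0.087 to 0.00036 for SLC36A1, -0.026 to 0.081 for SLC7A6 and -0.065 to 0.0089 for SLC43A1 in KO cells, and -0.048 to 0.032 for SLC36A4 and -0.012 to 0.15 for SLC7A6 between KO cells and hypoxia. Of the single-gene values under other settings, 690 kept their sign and side of the thresholds, 1 reversed, 1 lost its call and 5 gained one, and with a library left out 595 did, 12 reversed, 3 lost and 11 gained a call. Counts divided by 4 changed none of these calls or signs. Upper-quartile normalization gave 192 genes lower in hypoxia over all genes called lower, in place of 312. Genes under 1 CPM rest on few counts.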
